A study of Mus musculus with 14 samples.

Results

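The genes described here were the cathepsins, the Lamps and the subunits of the vacuolar ATPase, taken by symbol (Cts and 1 letter, Lamp and a number, or a name beginning with Atp6v or Atp6ap) where the table listed a protein-coding entry. The name pattern found 48 genes of 54446 in all, and 2 pseudogenes of Atp6v0c with such names were left out. They comprised 18 cathepsins, 4 Lamps, 13 V1 subunits, 9 V0 subunits and 3 accessory subunits, plus Atp6v1fnb, a neighbour of Atp6v1f that shares its name and is no subunit. The V0 subunit gene Tcirg1 lies outside the name pattern and was followed separately.

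Lysosomes digest proteins, lipids and sugars delivered by endocytosis and autophagy, and liver cells rely on them heavily. Their cathepsins are proteases that work at acid pH, the lysosome-associated membrane proteins (Lamps) line and protect the organelle's membrane, and the vacuolar ATPase pumps protons into its lumen. That pump has a membrane-embedded V0 sector, which carries the protons, and a cytosolic V1 sector, which hydrolyses ATP. Many genes of this system carry the sequence CACGTG in their promoters, the E-box core of the CLEAR element that the transcription factor TFEB binds.

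RNA was taken from the liver of 5-week-old C57BL/6 mice. The 6 control libraries were labelled as Mettl3 floxed, and the 8 knockout libraries as Mettl3 floxed with Alb-Cre, so both groups carried the floxed allele and only the knockouts carried the recombinase. Mettl3 encodes the catalytic subunit of the main enzyme that writes N6-methyladenosine on mRNA. The albumin promoter drives Cre in hepatocytes, which leaves Kupffer cells, endothelial cells and stellate cells of the same tissue with the unrecombined gene. In whole liver RNA, fewer cells of a type and less RNA per cell cannot be told apart. The labels do not say that every library came from a separate mouse, and p-values then measure only the spread between these libraries.

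The libraries held between 11.1 M and 33.8 M estimated reads (M, mega), with means of 26.2 ± 8.14 M (SD, n = 6) in the controls and 20.01 ± 8.19 M (SD, n = 8) in the knockouts. Values are the deposited normalised estimated counts. Mettl3 itself stood at 223 ± 23.7 in the controls (range 199 to 263) and at 99.5 ± 15.7 in the knockouts (range 76.9 to 122), with no overlap. The hepatocyte markers were the most abundant marker list in every library. Their summed level ran from 932186 to 1121530 in the controls and from 463328 to 880659 in the knockouts on the deposited scale. Of the 9 markers 6 fell, beside 11% of all genes. Scaled to equal sums, as described below, 3 of the 9 fell, beside 3.68% of all genes. Knockouts 3, 6 and 7 stood apart, with Cdkn1a, a cell-cycle inhibitor, at 481, 520.4 and 549.6, while the remaining knockouts held 49.9 to 162. Mitochondrial protein-coding genes took 7.85% and 7.91% of the values in knockouts 6 and 7 and 2.77% to 5.47% in every other library. Sex is not labelled: 6 libraries (controls 5 and 6, knockouts 5 to 8) were high in Xist and the other 8 expressed Y-linked genes, and the Xist-high libraries were also the shallower ones, at 11.1 to 19.3 M reads against 24.3 to 33.8 M, so sex and depth cannot be told apart.

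Of the 48 genes, 37 reached 10 in 6 or more libraries and were tested with limma on log2(value + 1). At an adjusted p of at most 0.05 over 23554 genes, 3 rose in the knockouts, 7 fell and 27 were not called. Among all genes tested, 11.5% rose and 11% fell, or 22.4% in either direction. The 10 called genes make up 27.03% of the 37, so the share called was close to that of all genes, and the description that follows is about which genes moved. The median log2 change of the 37 was -0.14, against 0.052 over all genes tested. All 3 that rose were cathepsins (Ctsb, Ctsd and Ctsl). The 7 that fell were the cathepsins Ctsc and Ctsf, the membrane protein Lamp2 and 4 pump subunits, Atp6v0d1, Atp6v1g1, Atp6v0b and Atp6v1h. For 5 of the 37 the control and knockout libraries did not overlap on the deposited scale (Ctsd and Ctsl higher, and Lamp2, Atp6v0d1 and Atp6v1g1 lower). Among all genes tested, 8.16% had groups that did not overlap, 4.14% higher and 4.02% lower.

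**Figure D1:**
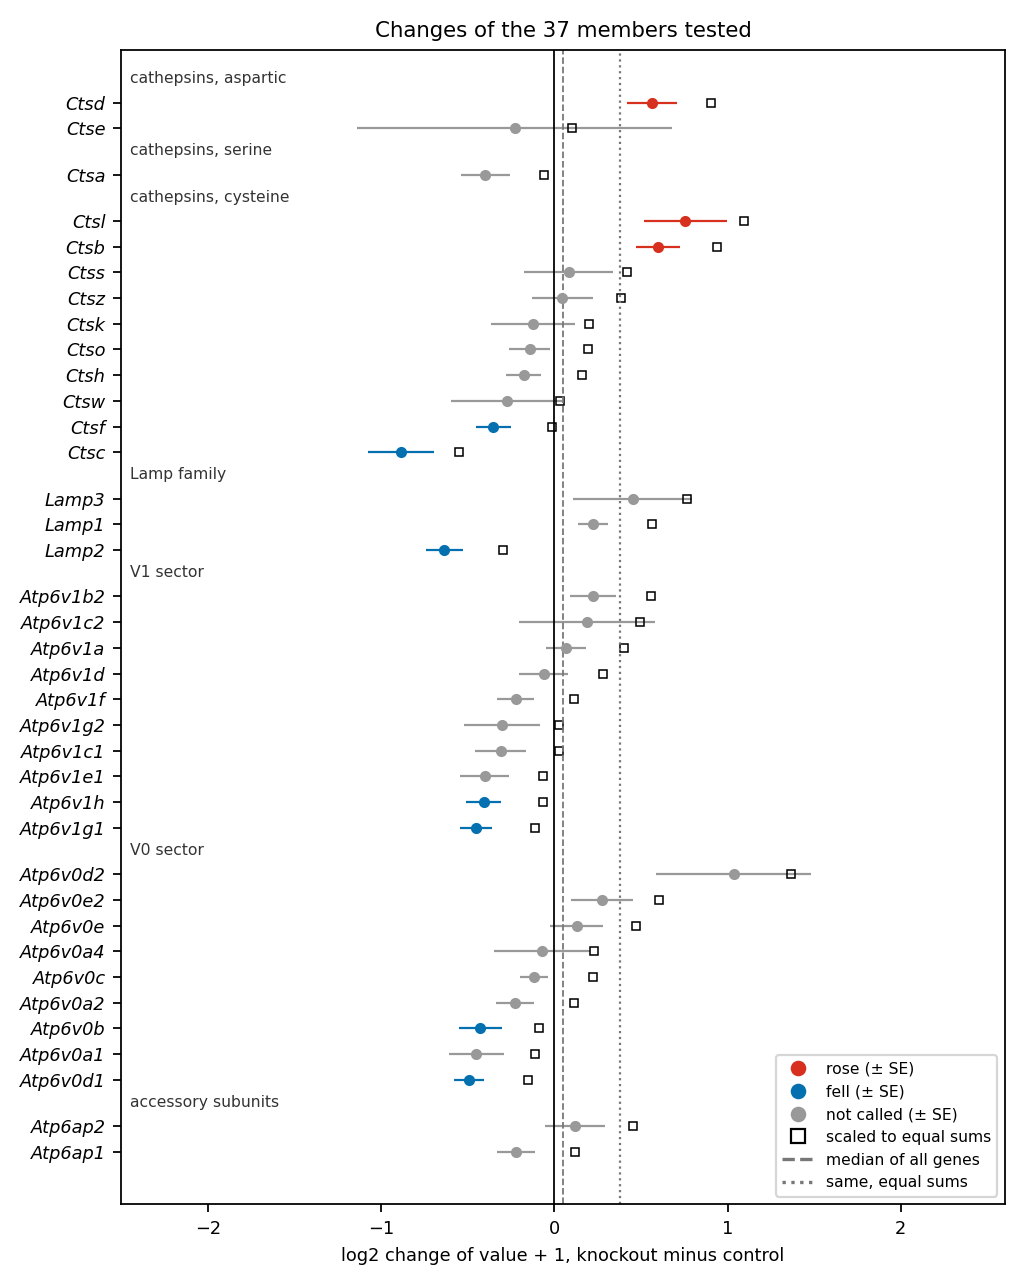
Each point is the log2 change of 1 gene (knockout minus control, on log2(value + 1)) and each line its SE, for the 37 tested genes arranged by role, with open squares for the same change after scaling to equal sums. Red (rose) and blue (fell) mark an adjusted p of at most 0.05, grey points were not called, and the dashed and dotted lines are the medians of all genes on the 2 scales (0.052 and 0.38): the 3 red points are cathepsins and 4 of the 7 blue ones are pump subunits.

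These directions depend on how libraries are put on a common scale. The deposited values sum to 24.05 ± 2.43 M in the controls and 19.1 ± 1.37 M in the knockouts. A second scale gave every library the same sum after ribosomal RNA genes were set aside. It moved the median of all genes up by 0.33 on the log2 scale, 33.3% of all genes rose and 3.68% fell (36.9% in either direction), and the share of calls that were higher went from 51.1% to 90.04%. On that scale 9 of the 37 rose and 2 fell. Ctsb, Ctsd, Ctsl, Lamp2 and Ctsc kept both their call and their direction, at log2 changes of 0.94, 0.90, 1.10, -0.30 and -0.55. Ctsf, at -0.013, and the 4 pump subunits were no longer called. At equal sums the control and knockout libraries overlapped for Lamp2, Atp6v0d1 and Atp6v1g1. They stayed apart for Ctsd and Ctsl, and no longer overlapped for Ctsb and Lamp1. The share of all genes without overlap was not counted on that scale, so these separations cannot be set against it. With quantile normalisation 4 of the 37 rose and 7 fell, against 10.1% and 10.2% of all genes (20.3% in either direction), and the 10 calls above were among them. The additional one was Lamp1.

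The promoters of some of these genes are shown because CACGTG is the core of the CLEAR element described above. RefSeq promoter windows of GRCm38.p6, from 250 bases before to 50 bases after each annotated start, were found for 37 of the 48 genes. These are not the same 37 genes as those tested. Atp6v0a2, Atp6ap1l, Ctsb, Ctsw, Atp6v1g1, Ctsh, Atp6v1b2, Ctse, Atp6v1c1, Atp6v0d2 and Atp6v1h had no entry. CACGTG, which reads the same on both strands, was present in 9 of the 42 windows of these genes, against 7.15% of 32851 windows. Those 9 windows belonged to 9 genes (24.3% of the 37). The longer palindrome TCACGTGA, which contains CACGTG, was present in 5 of the 42 windows, against 0.974% of all windows. They belonged to 5 genes (13.5% of the 37). Of the 9 genes with CACGTG, Ctsd and Ctsl rose, and Atp6v0b, Atp6v0d1 and Ctsf fell. Lamp1, Ctsa, Atp6v0e and Atp6v1a were not called, so genes with the motif lay among all 3 outcomes. Ctsb, which rose, and Atp6v1g1 and Atp6v1h, which fell, had no window. Whether the motif goes with a change was not tested. In the stretches below, written 5′ to 3′ on the gene's strand, capitals mark CACGTG. They were taken from before the start site, and cut to at most 30 bases where the motif lies inside the annotated gene or at its start. Ctsd (chr7:142388042-142388077, minus strand) and Ctsl (chr13:64370740-64370767, minus strand) rose. Atp6v0b (chr4:117887334-117887390, minus strand), Atp6v0d1 (chr8:105566051-105566078, minus strand) and Ctsf (chr19:4855061-4855116, plus strand) fell. Lamp1 (chr8:13159075-13159160, plus strand) held 4 copies and was not called. The TCACGTGA copy of Ctsd lies inside the annotated gene and is not shown.
Ctsd: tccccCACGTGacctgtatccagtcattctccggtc
Ctsl: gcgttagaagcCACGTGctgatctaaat
Atp6v0b: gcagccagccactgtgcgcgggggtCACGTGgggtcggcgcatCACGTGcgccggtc
Atp6v0d1: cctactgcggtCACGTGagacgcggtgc
Ctsf: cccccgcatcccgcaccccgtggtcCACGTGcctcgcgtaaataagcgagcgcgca
Lamp1: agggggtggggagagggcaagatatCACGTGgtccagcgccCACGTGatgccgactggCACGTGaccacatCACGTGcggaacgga

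Ctsb, Ctsd and Ctsl were the 3 cathepsins that rose. Ctsb is a cysteine protease that also trims dipeptides from protein ends. Its values ran from 4575 to 6029.7 (median 5244) in the controls and from 6000.4 to 10042 (median 8409.5) in the knockouts. The groups overlapped only at their edges, where control 4 (6029.7) lay just above knockout 4 (6000.4). Knockouts 3, 6 and 7 held 9118, 9174 and 10042, and the other knockouts 6000.4 to 8919. The means were 5292 ± 522 (SD, n = 6) and 8118 ± 1469.8 (SD, n = 8), and the log2 change was 0.60 (SE 0.13, adjusted p = 0.00342 in limma). Ctsd is the main aspartic protease of lysosomes. It ran from 4109 to 5664 (median 5376) in the controls and from 6062 to 10520.5 (median 6700.1) in the knockouts. Every knockout was above every control. Knockouts 3, 6 and 7 held 8828, 10138 and 10520.5, and the other knockouts 6062 to 6834. The log2 change of Ctsd was 0.57 (SE 0.14, adjusted p = 0.0109 in limma).

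Ctsl, a cysteine endopeptidase, had the widest spread of the 3. Its values ran from 7056 to 9295 (median 8576) in the controls and from 9523 to 30665 (median 12476) in the knockouts. The groups did not overlap, but the knockouts were far from uniform: knockout 6 held 30665 and knockout 7 held 23060.2, while the lowest knockout was only just above the highest control. The log2 change was 0.76 (SE 0.24, adjusted p = 0.0332 in limma). The call ended when control 1, 2, 5 or 6 or knockout 3 or 7 was left out, with adjusted p between 0.0519 and 0.0691. Without knockouts 3, 6 and 7 together, the changes of the 3 genes were smaller and still called: 0.46 for Ctsb (adjusted p = 0.0181), 0.34 for Ctsd (adjusted p = 0.0262) and 0.37 for Ctsl (adjusted p = 0.0404). In the Y-positive libraries alone, 4 controls against 4 knockouts, the changes were 0.47, 0.49 and 0.50 and none passed (limma adjusted p = 0.0731, 0.0567 and 0.0519).

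Ctsc moved the other way. It encodes cathepsin C, a dipeptidyl peptidase that activates the granule proteases of immune cells. Its values ran from 377 to 591 (median 459) in the controls and from 150.0 to 404 (median 261) in the knockouts. A single knockout, knockout 5, exceeded the lowest control. The means were 465 ± 87.7 (SD, n = 6) and 258 ± 78.1 (SD, n = 8), a log2 change of -0.89 (SE 0.19, adjusted p = 0.00374 in limma). This was the largest absolute change among the called genes of the group. Ctsf, a cysteine protease, fell by 0.35 on the log2 scale, from 578 ± 70 to 453 ± 53.4 (limma adjusted p = 0.0205). That call ended without control 3 (adjusted p = 0.054) and without knockouts 3, 6 and 7 (adjusted p = 0.0658).

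The remaining tested cathepsins were not called, and their log2 changes lay between -0.40 and 0.082. Ctsh, an aminopeptidase, ran from 3767 to 4660.2 (median 4270.1) in the controls and from 3216 to 4618 (median 3686) in the knockouts, a change of -0.18 (SE 0.10, adjusted p = 0.23 in limma). Ctsz, a carboxypeptidase, ran from 3572 to 4619 (median 4109.7) in the controls and from 3039 to 6819.8 (median 3687) in the knockouts, a change of 0.046 (SE 0.18, adjusted p = 0.88 in limma). Both groups overlapped widely for these genes, although Ctsz was at 6819.8 in knockout 6 and at 6393 in knockout 7, above every control. Ctsa, the serine carboxypeptidase that also protects neuraminidase and beta-galactosidase, stood at 895 ± 113 and 689 ± 149 and missed the threshold (log2 change -0.40, limma adjusted p = 0.0577). It passed when control 5, knockout 6 or knockout 7 was left out (adjusted p = 0.0363, 0.0321 and 0.0344). Ctss, the cathepsin of antigen-presenting cells, averaged 868 ± 88.1 and 1003 ± 442, with its highest value in knockout 3 (1728). Ctso, Ctsk and Ctsw had changes of -0.14, -0.12 and -0.28, and Ctsk and Ctsw had mean values under 20. Ctse, an aspartic protease best known from stomach and immune cells, varied widely, from 24.3 to 736, in the knockouts and from 25.8 to 461 in the controls, a change of -0.23 (SE 0.91, adjusted p = 0.886 in limma).

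**Figure D2:**
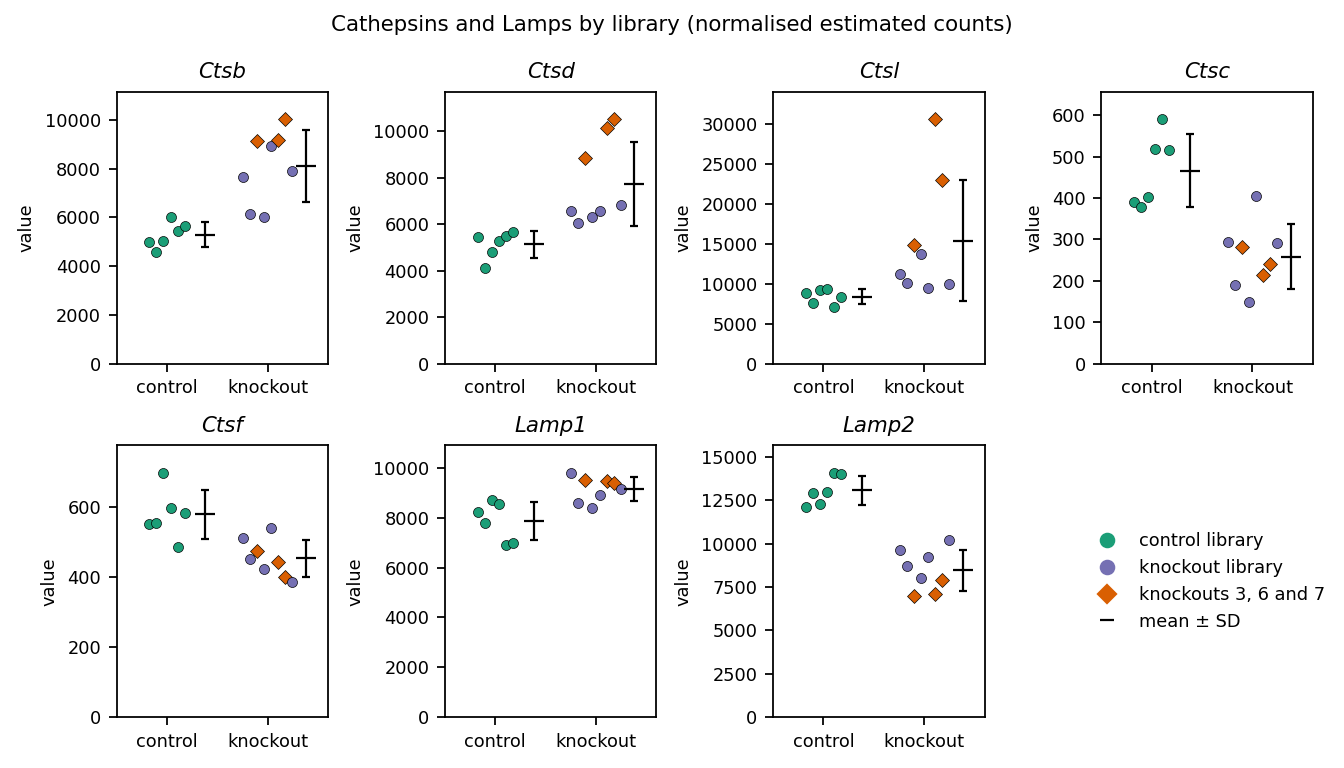
Each panel shows 1 gene, with the normalised estimated count on the vertical axis starting at 0; points are libraries by group, orange diamonds are knockouts 3, 6 and 7, and bars are the mean with its SD. Ctsd and Ctsl sit higher and Lamp2 lower in the knockouts with no overlap, and the highest Ctsl points, at 30665 and 23060.2, are knockouts 6 and 7.

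Of the 2 main Lamps, Lamp2 fell and Lamp1 was not called. Lamp2, a transmembrane glycoprotein needed for lysosomes to fuse with autophagosomes, ran from 12127 to 14105 (median 12958) in the controls and from 6976 to 10239 (median 8373) in the knockouts. Every knockout lay below every control. Its means were 13071 ± 839.9 (SD, n = 6) and 8477 ± 1186 (SD, n = 8), a log2 change of -0.63 (SE 0.11, adjusted p = 0.000643 in limma), and it stayed called when any 1 library was left out (adjusted p at most 0.00221). Lamp1, its close relative, ran from 6907 to 8694 (median 8019.7) in the controls and from 8368 to 9806 (median 9275) in the knockouts. The groups overlapped between 8368 and 8694, and the change of 0.22 (SE 0.086) missed the threshold (limma adjusted p = 0.0752). Scaled to equal sums, Lamp1 was called higher at 0.56 (limma adjusted p = 0.000231) and Lamp2 remained lower at -0.30 (adjusted p = 0.0366). Lamp3, the Lamp of mature dendritic cells, was near the filter at 10.1 ± 3.98 and 14.5 ± 7.56, and Lamp5 was below it.

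The ratio of 2 genes inside a library does not depend on how libraries are scaled. These ratios were chosen after the values were seen, so they are given as descriptions with no test. Lamp2 over Lamp1 was 1.69 ± 0.276 in the controls (range 1.41 to 2.04) and 0.929 ± 0.139 in the knockouts (0.734 to 1.12). Ctsb over Ctsc was 11.6 ± 1.32 in the controls (9.23 to 12.9) and 33.1 ± 7.77 in the knockouts (22.1 to 42.9). Ctsd over Ctsc was 11.2 ± 1.63 (9.29 to 14.0) against 32.3 ± 11.2 (16.3 to 47.4). The summed values of Ctsb, Ctsd and Ctsl were also set over a pump sum. That sum covers the V0 and V1 genes found by the name pattern, without Tcirg1. This ratio was 1.36 ± 0.0779 in the controls (1.27 to 1.46) and 2.59 ± 0.581 in the knockouts (2.04 to 3.69). Within the pump, Atp6v1h over Atp6v1a was 1.96 ± 0.139 (1.85 to 2.23) against 1.42 ± 0.139 (1.22 to 1.70). The groups did not overlap in these 5 ratios. They did overlap in the other 3 ratios taken. Ctsl over Ctsh ran from 1.84 to 2.30 in the controls and from 2.29 to 9.48 in the knockouts. Atp6v0d1 over Atp6v1a ran from 1.26 to 1.76 and from 0.745 to 1.45, and Atp6v0d1 over Atp6v0c from 0.538 to 0.719 and from 0.429 to 0.557.

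**Figure D3:**
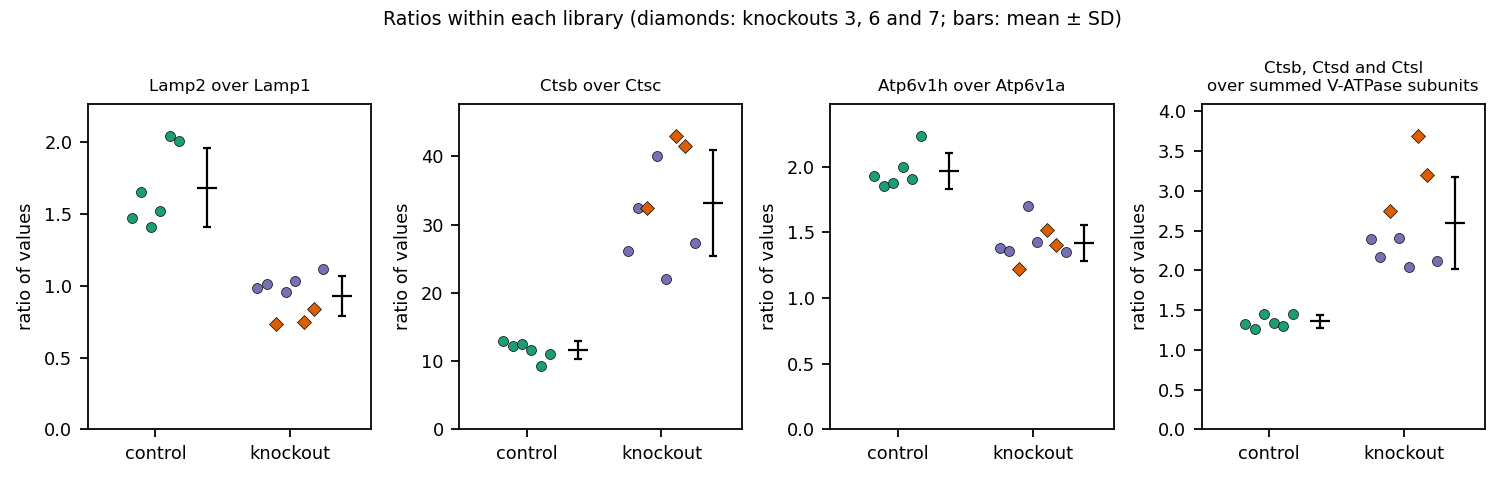
Each panel shows a ratio of normalised estimated counts taken inside each library, on an axis starting at 0; points are libraries, diamonds are knockouts 3, 6 and 7, and bars are the mean with its SD. The groups do not overlap in any of the 4 ratios shown, as for Lamp2 over Lamp1 at 1.41 to 2.04 against 0.734 to 1.12.

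No subunit of the vacuolar ATPase rose among the 21 tested on the deposited scale, and 4 fell, 2 in each sector. Tcirg1 is not counted among the 21. Among all genes 11.5% rose and 11% fell. At equal sums 5 of the 21 rose and none fell, beside 33.3% and 3.68% of all genes. Those 5 were Atp6v0d2 (1.37), Atp6v0e (0.47), Atp6v0e2 (0.61), Atp6v1a and Atp6v1b2. Atp6v0d1, the d subunit that joins the V0 ring to the central stalk, ran from 842 to 1134 (median 981) in the controls and from 647 to 789.9 (median 677) in the knockouts. The groups did not overlap, and the log2 change was -0.49 (SE 0.086, adjusted p = 0.000937 in limma). Atp6v0b encodes the c″ subunit of the proton-carrying ring. It ran from 806 to 1246 (median 961) in the controls and from 576 to 934 (median 742) in the knockouts, with knockout values reaching into the control range. The change of -0.43 (SE 0.12, adjusted p = 0.0209 in limma) was no longer called without control 1 or control 4 (adjusted p = 0.0541 and 0.0551), nor with the replicate number as a block (adjusted p = 0.0724).

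In the V1 sector, Atp6v1g1, a subunit of the peripheral stalk, ran from 1170.5 to 1599 (median 1344) in the controls and from 924 to 1152 (median 993) in the knockouts. Every knockout lay below every control, and the log2 change was -0.45 (SE 0.093, adjusted p = 0.00286 in limma). Atp6v1h, whose product links the sectors and is needed for ATP hydrolysis to drive the pump, fell by 0.41 on the log2 scale, from 1303 ± 63.6 to 993 ± 159 (limma adjusted p = 0.00944). Knockouts 6 and 7, at 1257 and 1216, lay within the control range of 1215 to 1410.1, and the other knockouts lay below it. Atp6v1e1, another peripheral stalk subunit, just missed the threshold. It ran from 1589 to 2364 (median 1975) in the controls and from 1129 to 2039.9 (median 1522) in the knockouts, a change of -0.40 (SE 0.14, adjusted p = 0.0507 in limma). Without control 3, knockout 6 or knockout 7 it passed (adjusted p = 0.0368, 0.0205 and 0.0279). The core of the ATP-hydrolysing ring did not pass: the catalytic subunit gene Atp6v1a stood at 666 ± 52.2 and 704 ± 119 (log2 change 0.066), and its partner Atp6v1b2 at 247 ± 33.7 and 290.2 ± 57.2 (0.22). Scaled to equal sums these were called higher, at 0.41 and 0.56 (limma adjusted p = 0.0338 and 0.0156), while the 4 subunits called lower on the deposited scale had changes of -0.15, -0.11, -0.088 and -0.067 and were not called.

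**Figure D4:**
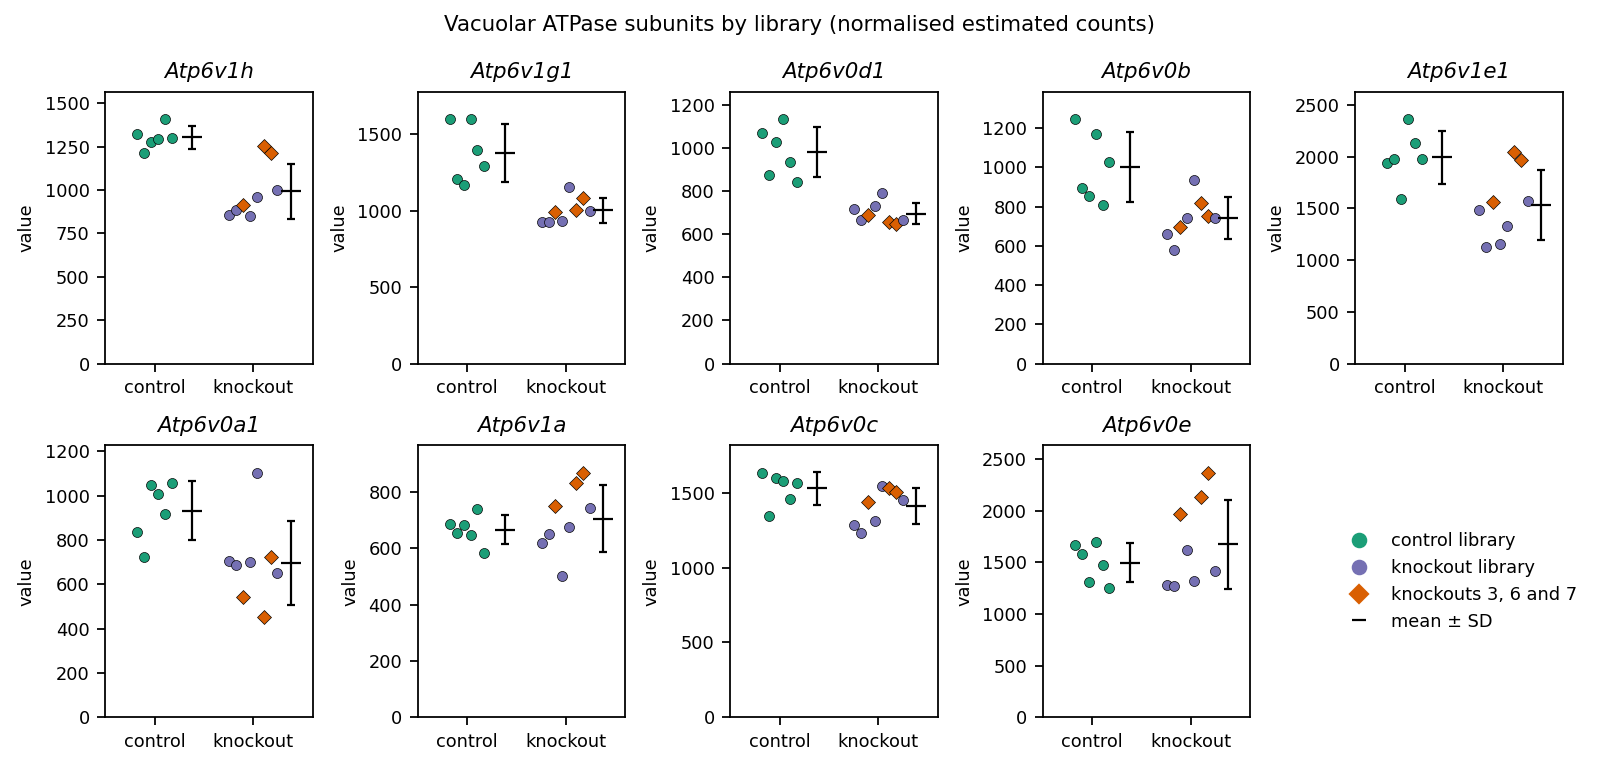
Each panel shows 1 gene of the vacuolar ATPase, with the normalised estimated count on the vertical axis starting at 0; points are libraries by group, orange diamonds are knockouts 3, 6 and 7, and bars are the mean with its SD. Knockout points of Atp6v0d1 (647 to 789.9) and Atp6v1g1 lie below all control points, whereas the groups overlap for Atp6v1a.

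The other pump genes that were not called had log2 changes from -0.45 to 1.03. Atp6v0a1, one of several a subunits that line the proton path, stood at 932 ± 133 and 696 ± 189.8 (log2 change -0.45, limma adjusted p = 0.055). Knockout 5 held 1104, above every control, and without it the change was -0.55 (adjusted p = 0.00718); without control 2 the adjusted p was 0.0384. Per kilobase of transcript, Atp6v0a1 made up 47.4% ± 3.88 of the 4 a-subunit genes in the controls and 39.3% ± 6.52 in the knockouts. Tcirg1, the a3 subunit known from osteoclasts and macrophages, made up 39.6% ± 3.96 and 48.1% ± 6.50. The ranges of both shares overlapped between groups. Tcirg1 stood at 591 ± 94.3 and 645 ± 139 and was not called (log2 change 0.11, limma adjusted p = 0.677). Scaled to equal sums, Tcirg1 was called higher (0.44, adjusted p = 0.0473). Atp6v1c1, a subunit that controls how the sectors come together, had a change of -0.31 (limma adjusted p = 0.142), which passed without knockout 7 (0.0299). The proteolipid ring gene Atp6v0c changed by -0.12, Atp6v0e by 0.13, Atp6v1d by -0.060 and Atp6v1f by -0.22, and none of these passed. Atp6v0e was highest in knockouts 3, 6 and 7 (1969, 2130.3 and 2372), above every control. The accessory subunits Atp6ap1, which takes part in assembly, and Atp6ap2, the prorenin receptor, had changes of -0.22 and 0.12. The remaining tested subunits were Atp6v0a2 (-0.23), Atp6v0a4 (-0.072), Atp6v0e2 (0.28), Atp6v1c2 (0.19) and Atp6v1g2 (-0.30). Among the B, G and E subunits, per kilobase, the same isoform led in both groups. Atp6v1b2 made up 95.3% ± 1.10 of the B subunit genes in the controls and 95.9% ± 1.91 in the knockouts, beside Atp6v1b1, the form of kidney and inner ear. Atp6v1g1 made up 97.7% ± 0.532 and 97.3% ± 0.722 of the G subunit genes, and Atp6v1e1 between 99.8% and 100% of the E subunit genes.

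Atp6v0d2, the second d subunit, known from osteoclasts, macrophages and kidney, was spread over a wide range in the controls, where the 2 Xist classes did not overlap. The 4 Y-positive controls held 25.7 to 67.1, and the Xist-high controls 168 and 208. The knockouts held 89 to 165 in the Y-positive class and 112 to 257 in the Xist-high class. Every Y-positive knockout was therefore above every Y-positive control, and the Xist-high groups overlapped. Over all libraries the log2 change was 1.03 (SE 0.45, adjusted p = 0.11 in limma). Within the Y-positive class it was 1.56 (adjusted p = 0.0126) and within the Xist-high class -0.26 (adjusted p = 0.748). The difference between the classes did not pass the interaction test (limma adjusted p = 0.705), which called 13 of 23554 genes (0.0552%) and none of the 37. Without control 5 or control 6 the pooled change of Atp6v0d2 passed (adjusted p = 0.026 and 0.0447). Its share of the 2 d-subunit genes per kilobase was 5.55% ± 5.02 in the controls (1.58 to 12.5) and 11.3% ± 4.12 in the knockouts (7.26 to 19.9). Within each class all 10 called genes kept the sign of their change. In the Y-positive libraries 6 of the 7 that fell were called again, Ctsf being the exception. In the Xist-high libraries, with 2 controls, none of the 10 was called.

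**Figure D5:**
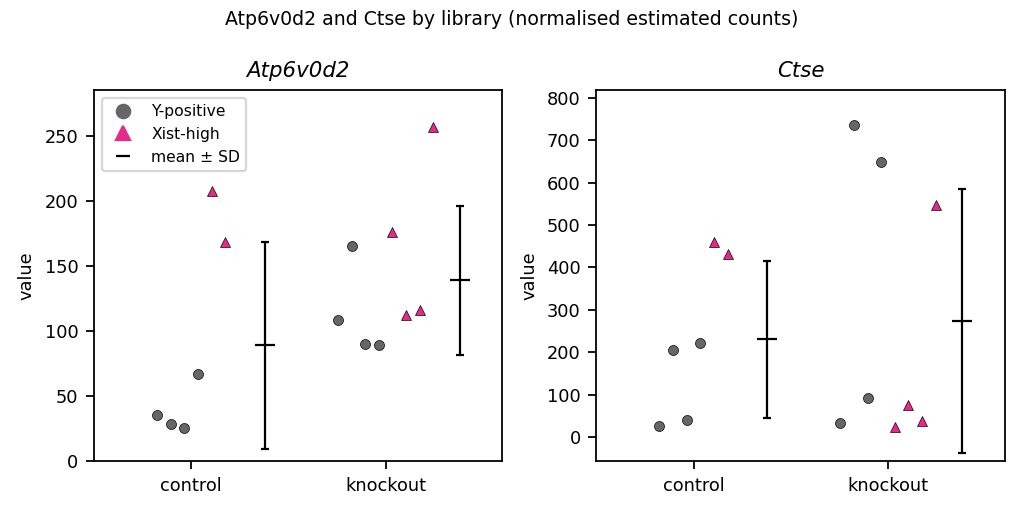
The panels show Atp6v0d2 and Ctse, with the normalised estimated count on the vertical axis; circles are Y-positive and triangles Xist-high libraries, and bars are the mean with its SD, which reaches below 0 for Ctse. The Xist-high controls of Atp6v0d2, at 168 and 208, lie within the range of the knockouts, and Ctse scatters from 24.3 to 736 within the knockouts.

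The 11 genes below the filter had mean values between 1.5 and 8.6, and the highest single value was 22.9. They were the placental cathepsins Ctsj, Ctsm, Ctsq and Ctsr, the neutrophil and mast cell protease Ctsg, Lamp5, the pump subunits Atp6v1b1, Atp6v1e2 and Atp6v1g3, the accessory gene Atp6ap1l, and Atp6v1fnb. No comparison was made for them.

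In the authors' deposited table, which tested 27865 genes, 17.1% had a q of at most 0.05. A q was listed for 39 of the 48 genes, and 13 of those 39 passed. They were the 10 called here plus Atp6v0a1 (q = 0.0479), Atp6v1e1 (q = 0.0366) and Ctsa (q = 0.0453). Some genes share sequence or place with another gene, and the strand setting of the quantification is not stated in the sources used here. Ctsd overlaps exons of Gm49369 on the same strand, which stood at 1102 ± 236 and 1540.5 ± 411, so estimated reads may have been divided between them. Ctsb overlaps Fdft1 on the opposite strand, and Fdft1 had a log2 change of -0.090 (limma adjusted p = 0.855). Lamp1 overlaps Grtp1 and Ctsz overlaps Nelfcd on the opposite strand, and both neighbours fell, by 0.70 (limma adjusted p = 0.00133) and by 0.56 (adjusted p = 0.00288) on the log2 scale. Ctsl overlaps the antisense gene Gm47123, whose values were low, at 8.21 ± 8.53 and 23.1 ± 12.5, and which was called higher (log2 change 2.04, limma adjusted p = 0.0354).

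Cathepsins are abundant in macrophages, and marker lists of the other liver cell types were read beside them. None of the 10 Kupffer cell markers was called, beside 22.4% of all genes. Their summed level ran from 10157 to 13234 in the controls and from 6968 to 18457 in the knockouts, highest in knockout 3. Of the 10 markers of injury-associated and recruited macrophages, 3 rose, beside 11.5% of all genes. These were the lipid receptor gene Trem2 (1.09) and the chemokine receptor genes Ccr2 (0.88) and Cx3cr1 (0.87). The sum of that list ran from 1969 to 3121 in the controls and from 1555 to 5717 in the knockouts, where knockouts 3, 6 and 7 held 5717, 4825 and 4418. The same 3 libraries held the highest Ctsb, Ctsd and Ctsl values, and knockouts 6 and 7, with the high mitochondrial share, the highest Ctsz values. Endothelial markers fell for 3 of 7, and cholangiocyte markers rose for 2 of 6 (Sox9 and Epcam), beside 11% and 11.5% of all genes. At equal sums 7 of the 10 recruited macrophage markers and 3 of the 6 cholangiocyte markers rose. So did 3 of 7 dendritic cell markers, 1 stellate cell marker and 1 lymphocyte marker, beside 33.3% of all genes. None of the 10 Kupffer cell markers was called at equal sums, and no endothelial marker fell. On the deposited scale 22.4% of all genes were called. There, none of the 3 tested neutrophil, 8 tested lymphocyte, 7 dendritic cell, 8 stellate cell and 5 tested erythroid markers was called. No marker in any list was at 0 in every library. The part of these cells, or of the mitochondrial share, in the cathepsin values was not tested.

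Genes of the wider lysosomal system were counted from lists written out by function. Among 35 genes of lysosomal hydrolases and of proteins that work with them (the activators Psap and Gm2a and the membrane acetyltransferase Hgsnat), 15 rose and 3 fell, with a median log2 change of 0.23, beside 11.5% of all genes that rose and 11% that fell. Galns, which removes sulphate from keratan sulphate, rose from 114 ± 16.8 to 287 ± 109 (log2 change 1.24, limma adjusted p = 0.00145). The 3 that fell were Acp2 (-0.76), Dnase2a (-0.47) and Fuca1 (-0.36). Scaled to equal sums, 24 of the 35 rose and 1 fell, beside 33.3% and 3.68% of all genes. Among 20 other lysosomal membrane proteins 3 rose and 3 fell, beside 11.5% and 11% of all genes. Scaled to equal sums, 9 of the 20 rose and 1 fell, beside 33.3% and 3.68%. Scarb2, the receptor that carries glucocerebrosidase to lysosomes, fell from 4036 ± 324 to 2529.9 ± 228 (-0.68, limma adjusted p = 7.94e-05). Tpcn2, an endolysosomal cation channel, rose from 76.1 ± 13.2 to 116 ± 32.5 (0.57, adjusted p = 0.0366).

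Among 13 genes that sort enzymes to lysosomes, 2 rose and 2 fell, beside 11.5% and 11% of all genes. At equal sums 5 rose and none fell, beside 33.3% and 3.68%. Sort1, the sorting receptor sortilin, fell from 572 ± 200.2 to 299 ± 119 (log2 change -0.95, limma adjusted p = 0.0215), a call that was lost at equal sums (-0.61, adjusted p = 0.0934). Gnptab, which builds the mannose-6-phosphate tag, rose from 69.5 ± 21 to 129 ± 41 (0.87, adjusted p = 0.0118). Of 12 genes for pump assembly and partners, Tcirg1 among them, 2 rose and 3 fell, again beside 11.5% and 11% of all genes. At equal sums 3 of the 12 rose and none fell, beside 33.3% and 3.68%. Among the 12, the largest changes were those of Ncoa7 (0.91, limma adjusted p = 0.0206) and Rogdi (0.88, adjusted p = 9.47e-05), which both rose. Their products bind or help assemble the pump. The lists were not tested as sets.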

How the data were processed

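Total RNA libraries were made from flash-frozen liver with a stranded Takara SMARTer Pico kit, per the labels' protocols. Per the submitters' processing notes, kallisto and sleuth were used on mm10, with no versions stated; the strand setting is not given in the sources used here. The authors deposited 1 table of 75859 lines for 54446 genes, since a gene with several biotypes was listed repeatedly with the same values, and it was reduced to 1 line per gene.

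The signal values that the authors deposited were normalised estimated counts, as read from the values: 1 size factor per library, with the worth of 1 read taken from each library's most frequent non-zero value. Only 27.9% to 29.8% of low values per library were whole reads (within 0.02 of a read, under 200 reads), so no count test was run, and the log-scale test laid down for values that are not counts was used. The authors also deposited a p-value and a q-value for each gene they tested. Their deposited effect was on the natural log scale: mean ln(value + 0.5) in the controls less that in the knockouts.

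Genes that reached 10 in 6 or more libraries were tested. log2(value + 1) was fitted with limma 3.58.1 (R 4.3.3) with a trended prior variance over 23554 genes, and p-values were adjusted by Benjamini-Hochberg. A log2 change on this scale understates the change of low genes. The script was tested on simulated data. Promoter windows came from RefSeq and gene positions and transcript lengths from GENCODE. Genes given in full were the 8 called members with the largest absolute change and the 4 uncalled ones with the highest mean; 2 called genes were named per pathway list, of which 1 is not reported here. Members and lists were chosen with earlier results of these data known. Alternatives covered thresholds, filters, pseudocounts, scaling, covariates, the Xist classes, left-out libraries and the replicate number as a block.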

Additional observations from a re-analysis of the deposited data

Results flagged for a closer look

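In 74 groups (each tested gene in the controls and in the knockouts), 3 libraries lay far from the rest of their group by Dixon's gap criterion, which chance alone meets in about 1 in 20 groups. Atp6v0a1 was at 1104 in knockout 5, with the other knockouts between 454 and 725. Atp6v1c2 was at 23.3 in control 2, with the other controls between 5.13 and 11.7, values near the filter. Ctso was at 379 in control 5, with the other controls between 268 and 309.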

How the results depend on the processing

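Over all genes, 2697 were higher and 2583 lower; among the 37 tested members, 3 and 7. Scaled to equal sums outside ribosomal RNA, these counts became 7833, 866, 9 and 2. At a threshold of 0.01, 1311 genes and 1 member higher and 1358 genes and 5 members lower remained past it. Requiring 1.5-fold left 1937 genes and 2 members higher, and 1371 genes and 2 members lower. The Xist-high libraries alone gave 172, 47, 0 and 0. The Y-positive libraries alone gave 1740 genes and 1 member (Atp6v0d2) higher, and 1954 genes and 9 members lower. Leaving out each library in turn gave 2189 to 2863 and 2039 to 2792 genes and 2 to 3 and 6 to 10 members. With the replicate number as a block, Atp6v0b (0.0724) and Ctsf (0.134) were no longer called among the 10. Same-numbered libraries did not deviate together throughout (correlations 0.0707 to 0.228, and 2 of 6 numbers correlated best with their own), so the numbers were not taken to pair the libraries. Only members that were not called changed sign. By equal sums these were Atp6v0a2 (0.11), Atp6v0a4 (0.23), Atp6v0c (0.22), Atp6v1c1 (0.027), Atp6v1d (0.28), Atp6v1f (0.12), Atp6v1g2 (0.027), Atp6ap1 (0.12), Ctse (0.10), Ctsh (0.16), Ctsk (0.20), Ctso (0.20) and Ctsw (0.035). By quantile normalisation they were Atp6v0c (0.0050) and Ctsh (0.092), and by the block Atp6v1a (-0.0029), Atp6ap2 (-0.0063) and Ctsz (-0.0035). With log2 depth as a covariate they were Atp6ap2 (-0.069), Ctss (-0.077) and Ctsz (-0.037). Without knockouts 3, 6 and 7 they were Atp6v0e (-0.11), Atp6v1a (-0.070), Atp6ap2 (-0.073), Ctse (0.35), Ctss (-0.31) and Ctsz (-0.23). In the Y-positive libraries alone they were Atp6v0a4 (0.11), Atp6v0e (-0.043), Atp6v1a (-0.098), Atp6ap2 (-0.093), Ctse (1.23), Ctss (-0.13), Ctsw (0.017) and Ctsz (-0.14), and in the Xist-high ones Atp6v0d2 (-0.26), Atp6v1d (0.12) and Atp6v1f (0.014). Leaving out 1 library, Atp6v0a4 ranged from -0.21 to 0.074, Ctse from -0.72 to 0.10, Ctsk from -0.21 to 0.011, Ctss from -0.049 to 0.22 and Ctsz from -0.053 to 0.11. The cause of these changes was not tested. Ctsl also lost its call with log2 depth as a covariate (0.0665) and with no filter on low values (0.0764), and Ctsf with log2 depth (0.053). Members with values near 10 are limited by depth.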

Other observations

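Autophagy, which delivers cargo to the lysosome, was covered by a list of 24 genes. None rose and 14 fell, with a median log2 change of -0.35, beside 11.5% of all genes that rose and 11% that fell. Gabarapl1, which encodes a protein of the autophagosome membrane, stood at 5771 ± 363 (mean ± SD, n = 6) in the controls and 2447 ± 608 (n = 8) in the knockouts, a log2 change of -1.28 (limma adjusted p = 6.10e-05). Atg3, the enzyme that attaches such proteins to lipid, fell from 2729.8 ± 336 to 1328 ± 282 (-1.06, adjusted p = 0.00012). Scaled to equal sums, 4 of the 24 rose and 6 fell, beside 33.3% and 3.68% of all genes, and Gabarapl1 and Atg3 stayed lower at -0.94 and -0.72.

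Among 20 tested genes of the TFEB family and of the platform that recruits mTORC1 to lysosomes, 3 rose and 3 fell, beside the same 11.5% and 11%. At equal sums 7 rose and none fell, beside 33.3% and 3.68% of all genes. Rragd, a Rag GTPase of that platform, stood at 53 ± 13.3 and 151 ± 95.5 (log2 change 1.25, limma adjusted p = 0.0253). Mitf, a transcription factor of the TFEB family, stood at 69.1 ± 11.2 and 98.1 ± 22.6 (0.48, adjusted p = 0.0398). Tfeb itself, named after its values were seen, had a change of -0.38 that missed the threshold (adjusted p = 0.145).

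Cystatins are the natural inhibitors of cysteine cathepsins, and their wider family includes kininogens and fetuins made by hepatocytes. Of 8 tested, none rose and 3 fell, where 11.5% and 11% of all genes did. The 3 were fetuin and kininogen genes. The cystatin genes Cst3 (-0.13), Cstb (0.71) and Cst6 (0.56, near the filter) were not called (limma adjusted p = 0.343, 0.0935 and 0.207). Fetub fell from 9271 ± 520.0 to 4131 ± 1332 (log2 change -1.24, limma adjusted p = 0.000438), Kng1 from 38388 ± 4201 to 24048 ± 3063 (-0.68, adjusted p = 0.000939), and Kng2 changed by -0.34 (adjusted p = 0.0346). Scaled to equal sums, 2 of the 8 rose (Cstb and Cst6) and 2 fell (Fetub and Kng1), beside 33.3% and 3.68% of all genes.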
